A study of Fragaria vesca with 9 samples.

Results

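The buds of the RdV ecotype of woodland strawberry, *Fragaria vesca*, were compared with those of the Hawaii-4 accession (H4), which took 6 of the 9 RNA-seq libraries of the series, 3 from each ecotype. The remaining 3 libraries are of FT3 overexpression (FT3OE). They carry the Hawaii-4 ecotype and genotype in their labels and FT3 in their titles. They are used here beside the named genes, the abundant genes, the windows along the genome and the effective lengths. Of the 34006 genes in the deposited tables, 18255 passed a filter on low counts over the 6 libraries and were tested. RdV and H4 are given as both ecotype and genotype. All plants were untreated, raised from seed under days of 16 h at 22 °C and nights of 8 h at 18 °C, and sampled when they had 4 leaves. Undifferentiated axillary buds were taken at node 4 under a stereomicroscope.

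The titles carry the code UB4 in RdV and FT3OE and US4 in H4, and the labels define neither code. Whatever the codes stand for runs with the comparison of RdV with H4 and cannot be told apart from ecotype. The labels name no parent plants, no pools and no separate growth batches for the replicates, so p-values measure the spread between these libraries, which may be technical. Whole buds were sequenced, so a change in the cells that make up a bud and a change of RNA per cell cannot be told apart.

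An axillary bud sits in the angle between a leaf and the stem and holds a small meristem. In strawberry it can stay dormant, grow into a runner (a long horizontal stem that roots and makes daughter plants) or grow into a branch crown, a short leafy shoot whose tip can flower. Ecotypes of woodland strawberry are known to differ in runnering and in flowering habit, and gibberellin is known to favour the runner. The files give gene identifiers without names, and the gene table at hand pairs 0 of the 34006 with a name. Genes are therefore given by identifier, without a function, and the identity of the buds could not be checked against marker genes.

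Total expected counts were 30507161, 27027190 and 26797546 in RdV replicates 1, 2 and 3, against 30448627, 23110936 and 29464475 in H4 replicates 1, 2 and 3. Genes at 1 TPM (transcripts scaled to a fixed sum, a level per length) or more numbered 17484 to 17834 in RdV libraries and 17229 to 17297 in H4 libraries. The share of all TPM that would have to be reassigned to turn one library into another was 3.77% to 8.38% over the 3 pairs of RdV libraries, 3.39% to 4.35% over the 3 pairs of H4 libraries, and 10.63% to 14.54% over the 9 pairs of RdV with H4. The ecotypes thus lay further apart than any 2 replicates. No 2 libraries of an ecotype agreed within counting noise, since chi-square divided by its degrees of freedom was 5.86 or more for each pair, and none was counted as a duplicate.

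In the main fit less than 50% of the tested genes were called different between the ecotypes, and most calls were of small changes. A gene that was not called is not shown to be equal, and limma voom with library weights called 9773 of the 18255. In all, 7953 genes (43.6% of those tested) were called, 4116 higher (22.5%) and 3837 lower (21.0%) in RdV buds, by edgeR's quasi-likelihood test with Benjamini-Hochberg adjusted p under 0.05. The median change among called genes was 1.47-fold (0.555 on the log2 scale). It was 0.638 among the higher genes and −0.497 among the lower ones. Changes under 1.5-fold made up 20.9% (under 1.25-fold) and 32.0% (1.25-fold to 1.5-fold) of the calls, changes of 1.5-fold to 2-fold 21.6%, and changes of 8-fold or more 3.3%.

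Large changes were more often rises than falls. Among called genes, 2027 (11.1% of those tested) changed at least 2-fold, 1320 higher (7.23%) and 707 lower (3.87%) in RdV, so that 65.1% of them were higher, against 51.8% of all calls. The difference in number was widest between 2-fold and 4-fold, with 974 higher and 479 lower genes. At 8-fold or more there were 145 higher and 115 lower genes. Some genes were read in one ecotype alone: 41 genes had at least 10 counts in each RdV library and 0 in each H4 library, and 32 had 0 counts in each RdV library and at least 10 in each H4 library. The identifiers follow the naming convention of Hawaii-4 gene models, and differences of sequence between the ecotypes could not be examined. Less RNA and fewer assigned reads in RdV therefore cannot be told apart.

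The 3 RdV and 3 H4 values in CPM (counts scaled to library size) did not overlap in 10096 tested genes (55.3%), 5133 with RdV above H4 and 4963 with RdV below. Of the 7953 called genes, 7882 were free of overlap. The 71 others include 12 genes called at 2-fold or more, in which at least 1 library reached into the range of the other ecotype. When each of the 6 libraries was left out in turn, 5224 genes (65.7% of the calls) were called in the same direction in all 6 fits, 2761 higher and 2463 lower in RdV, and 1692 of these changed at least 2-fold.

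The share of higher genes among the calls moved with the scaling. With library totals alone 63.2% of calls were higher, against 51.8% with TMM scaling. With limma on log2(TPM + 1), which differs in unit, test and filter (23058 genes tested), it was 68.9%. Over all tested genes the median log2 change was −0.004 with TMM, 0.075 with library totals and 0.079 with that limma fit. With a minimum mean of 1 TPM the limma median was 0.113, and with a pseudocount of 0.1 it was 0.127.

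**Figure D1:**
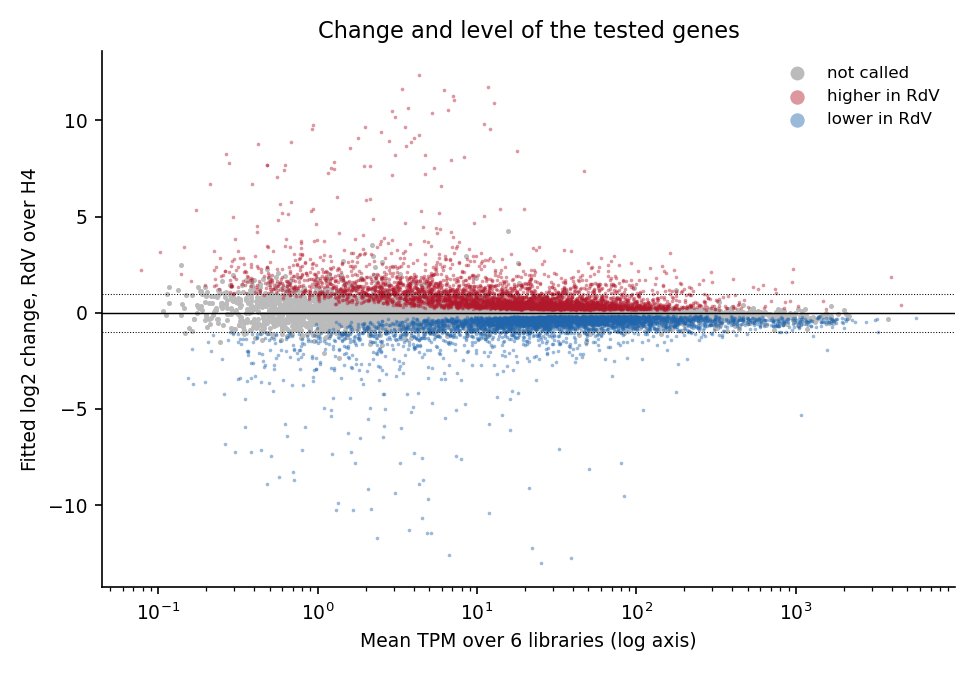
Fitted log2 change of RdV over H4 (vertical axis) against mean TPM over the 6 libraries (horizontal, log axis) for the 18255 tested genes; red points are called higher in RdV, blue points called lower and grey points not called, and dotted lines mark 2-fold. Most called genes lie within the 2-fold lines, and the right end of the cloud, at the highest levels, lies mostly below 0.

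The named genes are those with the largest changes among called genes that had at least 10 counts in each of the 6 libraries and no overlap between ecotypes, 2 higher and 2 lower in RdV. In all 7321 genes met these conditions, 3739 higher and 3582 lower, and 23 of the higher and 21 of the lower ones changed at least 8-fold.

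FvH4_3g42880 fell furthest. It stood at 0.58, 0.72 and 0.28 TPM in RdV replicates 1, 2 and 3, against 64.87, 63.95 and 65.63 TPM in H4. All RdV libraries were far below H4, at 32, 48 and 20 counts, and the H4 libraries differed by less than 2 TPM. The fitted log2 change was −7.07 ± 0.20 (SE, n = 3 each; edgeR adjusted p = 6.33e-07), a 134-fold difference. By level the gene ranked 18575 of 34006 in RdV and 2961 in H4.

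FvH4_4g30901 had 0.41, 0.55 and 0.47 TPM in RdV, against 22.66, 21.97 and 25.84 TPM in H4. The RdV side rests on 10, 13 and 10 counts and the H4 side on 603, 446 and 660. The groups were far apart, with a log2 change of −5.77 ± 0.17 (SE; adjusted p = 7.18e-07 by edgeR). Leaving out any 1 library moved the log2 change of this gene between −5.96 and −5.63, and that of FvH4_3g42880 between −7.47 and −6.83.

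FvH4_1g21480 was the steadier of the genes that rose. It held 12.18, 10.46 and 10.96 TPM in RdV, against 0.78, 0.29 and 0.39 TPM in H4, with a log2 change of 4.35 ± 0.25 (SE; adjusted p = 1.1e-05 by edgeR). The RdV libraries agreed closely, and H4 replicate 1 was the highest of the H4 libraries.

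FvH4_5g06210 ranked first among rises because of 1 library. Its levels were 77.67, 1.89 and 2.07 TPM in RdV replicates 1, 2 and 3, against 0.61, 0.53 and 0.56 TPM in H4. RdV replicate 1 stood far above the other RdV libraries, which were themselves above all H4 libraries. The log2 change was 5.38 ± 1.59 (SE; edgeR adjusted p = 0.0257) with all libraries and 1.69 without RdV replicate 1 (adjusted p = 0.00253). Without H4 replicate 1, 2 or 3 the adjusted p was 0.087, 0.0811 and 0.0869, and with robust dispersions 0.111. FvH4_5g06210, FvH4_3g42880 and FvH4_4g30901 had a count that was not whole in at least 1 library, which occurs where reads were divided between genes by estimation, and their values are uncertain to an extent that was not measured here.

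**Figure D2:**
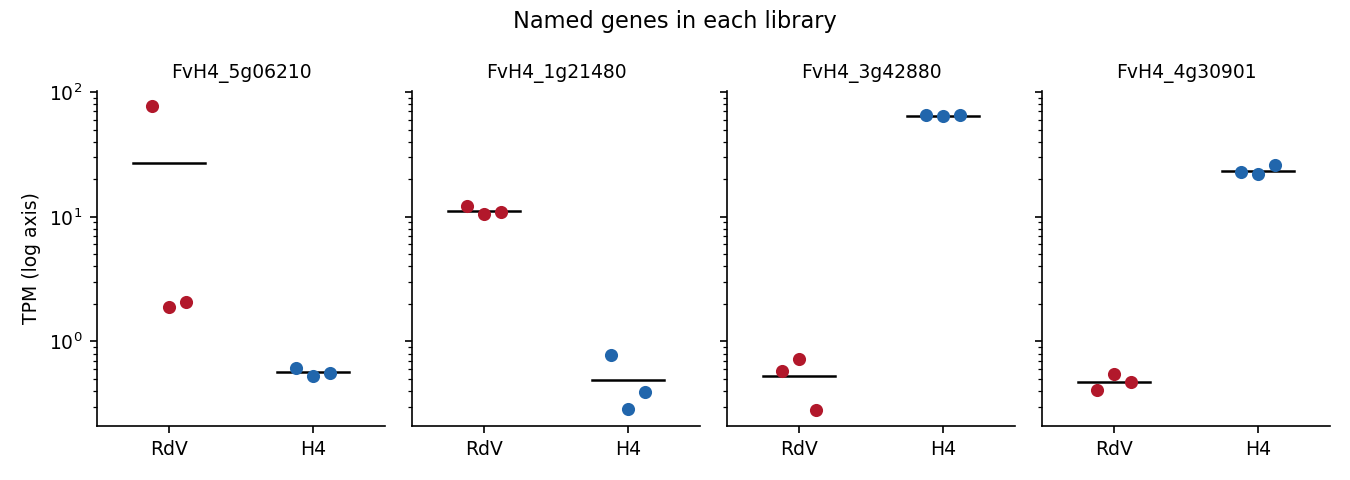
TPM (log axis) of the 4 named genes in each library; points are the 3 RdV libraries (red, left) and the 3 H4 libraries (blue, right), and lines are group means. RdV replicate 1 of FvH4_5g06210 stands at 77.67 TPM, while the other RdV libraries are at 1.89 and 2.07. In the other genes the libraries of one ecotype lie closer together. Low values still spread on this axis, from 0.29 to 0.78 TPM in H4 for FvH4_1g21480 and from 0.28 to 0.72 TPM in RdV for FvH4_3g42880.

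FT3OE shares the title code of RdV and the ecotype of H4, and differs from H4 by FT3 overexpression as well as by code. It was on the side of H4 in these 4 genes. Their levels in FT3OE replicates 1, 2 and 3 were 70.8, 75.24 and 70.96 TPM for FvH4_3g42880 and 26.06, 30.58 and 26.65 TPM for FvH4_4g30901. For FvH4_1g21480 they were 1.28, 0.62 and 0.74 TPM, and for FvH4_5g06210 0.52, 0.63 and 0.44 TPM. In a fit of all 9 libraries the log2 change of RdV over FT3OE was −7.06 ± 0.16 for FvH4_3g42880, −5.88 ± 0.15 for FvH4_4g30901, 3.72 ± 0.28 for FvH4_1g21480 and 5.62 ± 1.37 for FvH4_5g06210 (SE, n = 3 each). The edgeR adjusted p-values were 1.39e-09, 2.54e-09, 8.3e-06 and 0.0139, in a comparison in which 4122 of 18587 genes (22.2%) were called. In that same fit RdV against H4 called 8936 of the 18587. There the log2 changes of the 4 genes in RdV over H4 were −7.07, −5.78, 4.35 and 5.38. The 4 genes were chosen by their change between RdV and H4, so they do not stand for the other genes. The RdV libraries are common to both comparisons.

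Behind these 4 genes, the next 10 rises by the same rule had log2 changes from 4.21 to 3.38, and the next 10 falls from −5.33 to −3.48. In 2 of the 10 rises the RdV libraries ranged over 14.6-fold and 16.5-fold in TPM, and in 2 of the 10 falls over 12.8-fold and 11-fold; in the others they ranged over at most 2.68-fold. The third fall is the most abundant of these genes, with 8.72 to 112.03 TPM in RdV and 2040.06 to 2209.43 TPM in H4.

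Among abundant genes lower calls outnumbered higher calls in RdV, and among sparse genes higher calls outnumbered lower calls. When the tested genes were put in 4 equal classes by mean TPM over the 6 libraries, 26.2% were higher and 13.5% lower in RdV in the lowest class (up to 6.22 TPM). In the highest class (from 45.1 TPM) 18.6% were higher and 31.7% lower, with a median log2 change of −0.088 over the class, called or not. The classes between had 23.3% higher and 17.6% lower, and 22.1% higher and 21.3% lower. Changes of at least 2-fold were called in 26.21% of the lowest class and 4.58% of the highest.

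**Figure D3:**
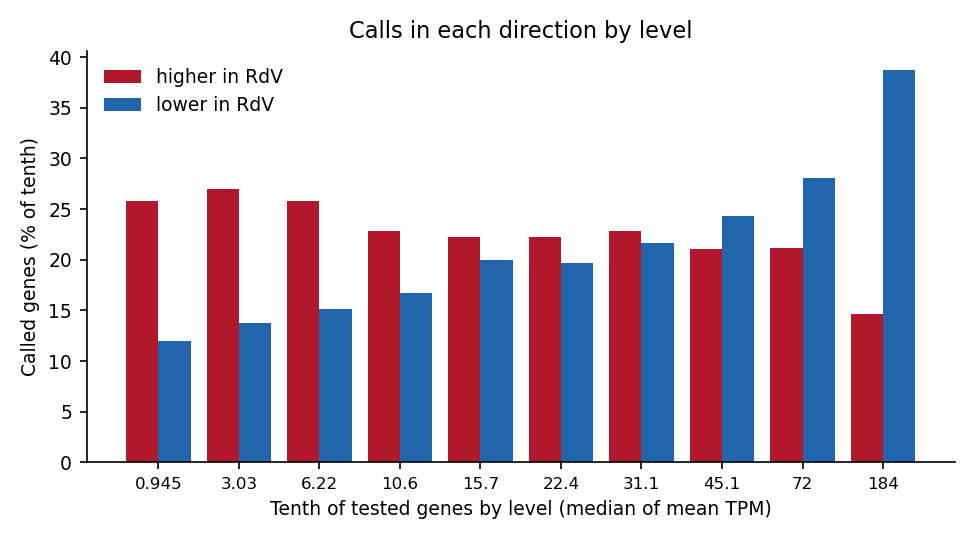
Percentage of genes called higher (red) and lower (blue) in RdV in 10 equal classes of tested genes ordered by level; labels under the bars are the median level of each class in TPM. Higher calls go from 25.8% of the lowest class to 14.6% of the highest, and lower calls from 12% to 38.7%.

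The 100 most abundant genes, with means of at least 1070 TPM, showed this most. Of these 65 were lower and 4 higher in RdV, and 92 had a negative log2 change; the median was −0.351, against −0.004 over all tested genes. Together they held 15%, 17.2% and 15.6% of all TPM in RdV replicates 1, 2 and 3, against 17.6%, 18.2% and 18.0% in H4. The groups did not overlap in this sum, and RdV replicate 2 was the closest to H4. With the 100 genes chosen in RdV alone they did overlap, at 15.4%, 17.3% and 16.0% in RdV, against 16.7%, 17.2% and 17.2% in H4, and RdV replicate 2 then lay above all H4 libraries. The median log2 difference of the 100 genes from the H4 mean was −0.52, −0.17 and −0.43 in the 3 RdV libraries, and 91, 71 and 89 of the genes lay below all H4 libraries.

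Lower calls outnumbered higher calls whichever group defined abundance. With the 100 genes chosen in RdV alone, 57 were lower and 11 higher, with those chosen in FT3OE alone 66 and 6, and with those chosen in H4 alone 69 and 3. A sum below H4 was also seen in FT3OE. The genes chosen in H4 held 14.7%, 16.9% and 15.3% of all TPM in RdV and 16.0%, 15.3% and 16.0% in FT3OE, against 17.7%, 18.2% and 18.1% in H4. That choice favours a high sum in H4. With genes chosen in RdV, FT3OE and H4 lay closer, at 15.9%, 15.2% and 16.0% in FT3OE against 16.7%, 17.2% and 17.2% in H4. With genes chosen in FT3OE they held 16.1%, 15.5% and 16.2% in FT3OE, against 17.3%, 17.8% and 17.8% in H4. The 100 genes ranked over all 6 libraries had 65 lower and 4 higher calls. Fewer of these were called lower without any 1 library other than RdV replicate 2 (34 to 47). Under the 3 limma fits on TPM 31, 21 and 32 were lower and 6 higher in each. At an adjusted p under 0.01 33 were lower, and when tested against a fold of 1.5 4. More were lower without RdV replicate 2 (89 lower, 4 higher) and under limma voom with library weights (88 and 4). The median stayed negative in each setting, between −0.448 and −0.217. Among the 1000 most abundant genes 447 were lower and 114 higher, and under limma on log2(TPM + 1) 234 and 156. These sets were chosen after the values had been seen.

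Abundant genes were also short: 71 of the 100 fell in the shortest of 4 length classes, by counts divided by TPM, and 2 in the longest. Of the 89 in the shorter 2 classes 58 were lower in RdV, and of the 11 in the longer 2 classes 7. Among all genes of the highest level class, 35.1% of the shortest and 23.5% of the longest were lower. With each library's trend against length removed, 33.0% of the highest level class were lower and 21.8% higher, and of the 100 genes 66 were lower and 6 higher. In that fit the lowest level class still had 27.0% higher and 14% lower. The part of RNA quality in these differences was not tested.

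RdV libraries differed among themselves more than H4 libraries. The standard deviation of log2 CPM over 3 libraries had a median of 0.131 in RdV and 0.099 in H4 over tested genes, and it was larger in RdV for 11331 genes (62.1%). Among the 100 most abundant genes the medians were 0.184 in RdV and 0.061 in H4. Of 14313 genes with a mean of at least 5 TPM, 425 (2.97%) ranged over 2-fold or more within RdV and 175 (1.22%) within H4.

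RdV replicate 2 was the library apart in most of these genes. It was the furthest from the other RdV libraries in 292 of the 425 genes, and higher than both in 281 of them; replicates 1 and 3 were the furthest in 78 and 55. In the 281 genes RdV replicate 2 had a median log2 difference from the H4 mean of 0.26, against −1.09 in RdV replicate 1 and −0.99 in RdV replicate 3. It lay above all H4 libraries in 124 of them, within their range in 127 and below in 30. RdV replicates 1 and 3 lay below all H4 libraries in 247 and 240. These genes were chosen by that difference, so the values describe the library and test nothing.

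With RdV replicate 2 in the fit, 30 of the 281 genes were called lower and 7 higher, and without it 222 were called lower and 5 higher. The choice of these genes by a high RdV replicate 2 favours lower calls without that library, so the change in calls tests nothing. Over all genes, 9513 were called without RdV replicate 2, 7586 of them in the same direction as with it, and 367 of the calls were lost. On the first principal component, with 78.5% of the variance, RdV replicates 1, 2 and 3 stood at 61.68, 49.18 and 56.59 and H4 replicates at −56.06, −56.58 and −54.81. The second, with 8.5%, held RdV replicate 1 at −27.11 and RdV replicate 2 at 33.41, and H4 between −9.69 and 9.01.

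**Figure D4:**
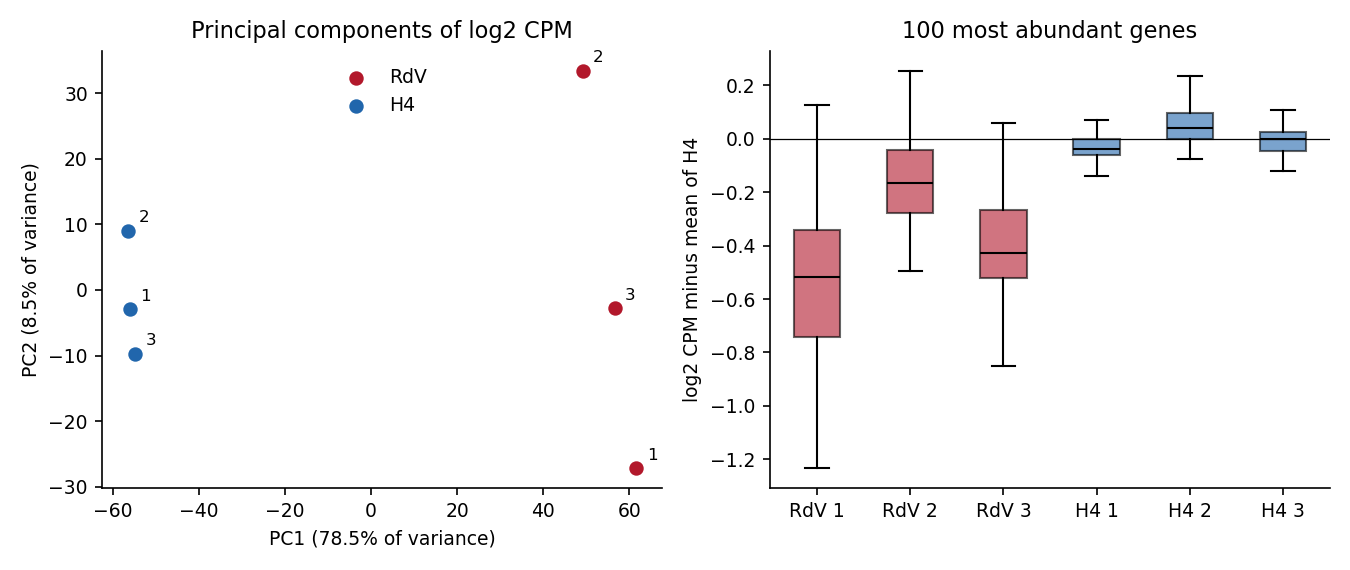
Left, the first and second principal components of log2 CPM for 3 RdV (red) and 3 H4 (blue) libraries, numbered by replicate; right, log2 CPM of the 100 most abundant genes minus their H4 mean, by library (box, middle 50% of genes; line, median; whiskers, the furthest gene within 1.5 box lengths). RdV medians are −0.52, −0.17 and −0.43, with replicate 2 closest to H4, and H4 boxes lie close to 0.

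Calls were spread over the genome. The digit before the g of an identifier is read here as its linkage group, and the digits behind the g as its place on that group, by the naming convention of Hawaii-4 gene models. Between 41.4% (linkage group 5) and 46.2% (linkage group 1) of tested genes were called on each of the 7 groups. Linkage group 7 had the largest share called at 2-fold or more, 13.53%, and linkage group 5 the smallest, 9.29%. In 88 bins of 200 neighbouring genes, called genes made up 33.0% to 54.0%, and the median log2 change lay between −0.089 and 0.092. Of 3609 pairs of neighbours that were both called, 1992 (55.2%) had one direction, where 51.8% of all calls were higher. The share among called genes that are not neighbours was not measured.

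A few short stretches stood out from this. In windows of 20 neighbouring tested genes the median number called was 4 higher and 4 lower. The fullest for rises was the end of linkage group 5, FvH4_5g39450 to FvH4_5g39750, with 17 higher and 0 lower. The median log2 difference of its genes from the H4 mean was 0.69, 0.50 and 0.78 in RdV replicates 1, 2 and 3, against −0.01, 0.01 and 0.01 in H4. All RdV libraries moved together there, whereas FT3OE, in the fit of 9 libraries, had a median log2 change of −0.02 against H4.

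The next 2 windows by rank that shared no gene with it or with each other held 12 higher and 1 lower gene each. The one with the larger median ran from FvH4_1g15130 to FvH4_1g15530 on linkage group 1. Its RdV medians were 0.75, 0.46 and 0.44, and FT3OE stood at 0.48. The fullest windows for falls both lay on linkage group 6, with 13 lower and 2 higher each. From FvH4_6g51710 to FvH4_6g51950 the RdV medians were −0.46, −0.45 and −0.41, 7 of the 20 genes changed at least 2-fold, and FT3OE stood at 0.03. From FvH4_6g31610 to FvH4_6g31860 they were −0.33, −0.35 and −0.27, with 3 genes at 2-fold and FT3OE at −0.21. Windows were ranked by their calls, so these values describe them and are not tests.

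**Figure D5:**
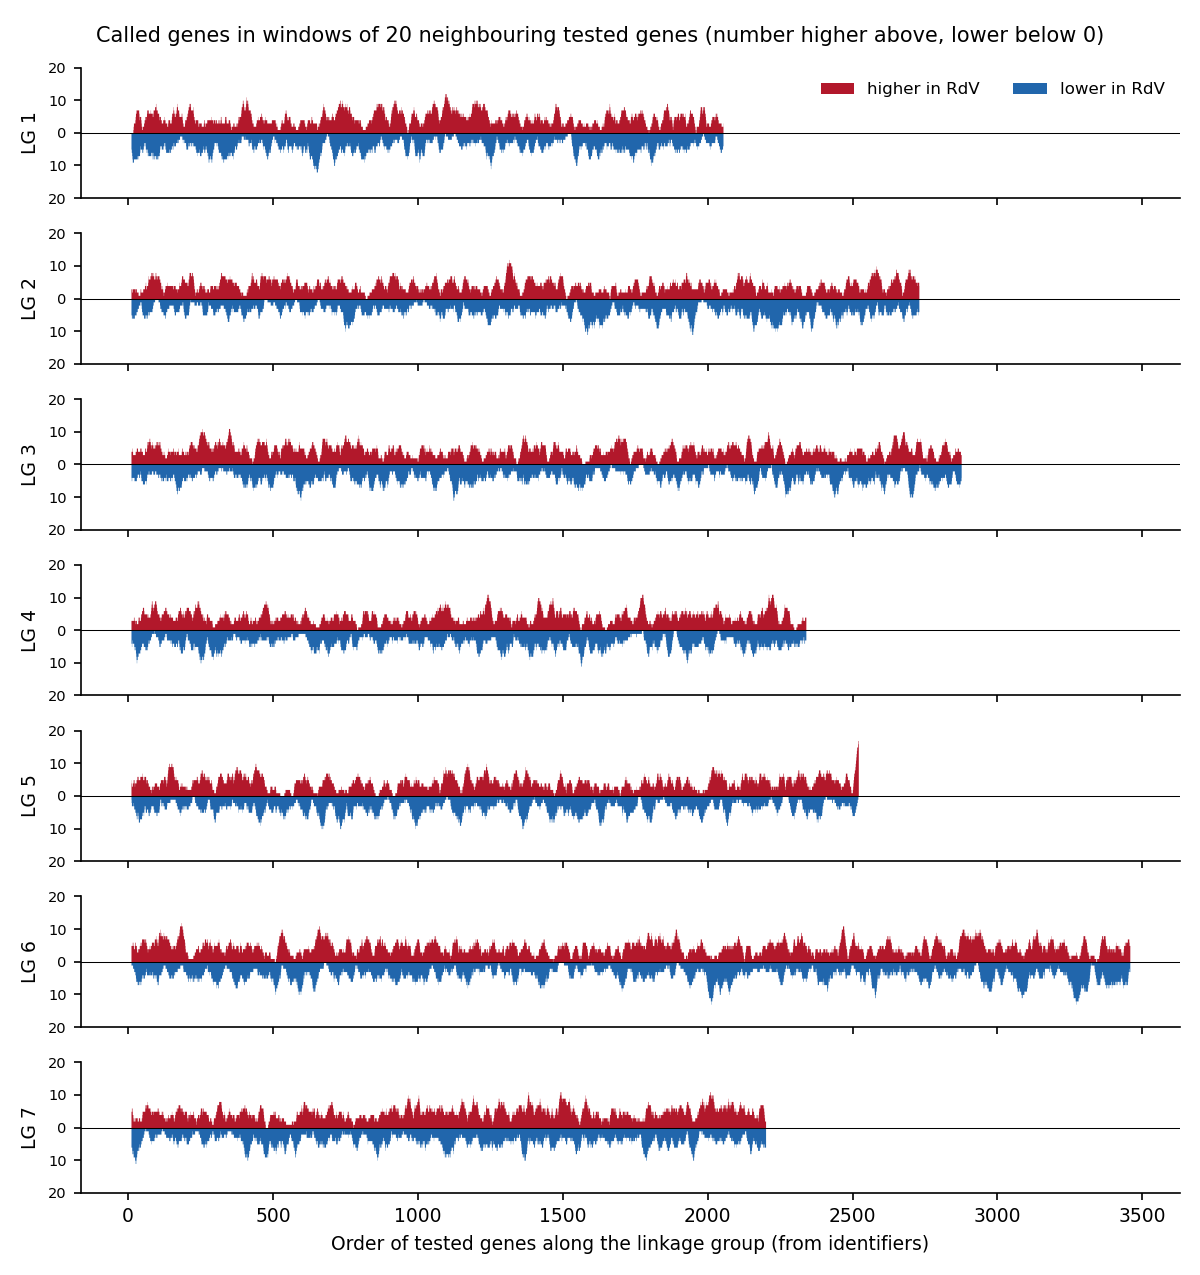
Number of called genes in windows of 20 neighbouring tested genes along linkage groups 1 to 7 (horizontal axis, order of tested genes); red above 0, higher in RdV; blue below 0, lower in RdV. The tallest red peak, 17 of 20 genes, is at the right end of linkage group 5, and the deepest blue troughs, 13 genes, are on linkage group 6.

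The class of gene model made little difference to how often genes were called. Identifiers whose last digit is not 0 made up 9600 of the 34006, of which 1927 were tested, with a median of 9.85 TPM against 20.1 TPM for the rest. Of them 40.8% were called and 14.89% changed at least 2-fold, against 43.9% and 10.66% of the 16328 tested genes whose identifier ends in 0. At like levels the shares at 2-fold or more were closer in some level classes and not in others. In the lowest class 26.46% of identifiers with another last digit changed at least 2-fold, against 26.15% of those ending in 0, in the third class 6.74%, against 4.64%, and in the highest 5.03%, against 4.55%. Called at any size in the lowest class were 36.7%, against 40.2%. Genes with a count that was not whole in at least 1 of the 6 libraries numbered 1016, of which 46.9% were called and 19.39% changed at least 2-fold, against 43.4% and 10.62% of the 17239 others.

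In some genes counts and TPM gave different changes, because the estimated effective length differed between the libraries of the 2 ecotypes. Count divided by TPM is proportional to the length over which a gene's reads were estimated to arise, a mean over its transcripts weighted by their use, so it moves when the estimated mix of long and short transcripts moves. It was compared in 12738 genes with at least 5 TPM and 100 counts in each library, after removing each library's trend with length. In 8628 of them the 6 libraries lay within 0.02 on the log2 scale. Between the ecotypes 33 genes (0.259%) were called by limma at adjusted p under 0.05, 8 with longer and 25 with shorter effective length in RdV. Called or not, 178 genes shifted by at least 0.1 on the log2 scale, 53 to longer and 125 to shorter.

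Which genes were called depended on single libraries. At an unadjusted p under 0.05 there were 988 genes. Leaving out 1 library gave between 0 and 17 calls: 0, 17 and 6 without RdV replicates 1, 2 and 3, and 2, 0 and 0 without H4 replicates 1, 2 and 3. Of the 33 genes 21 were also called by level, where 44.2% of all 12738 genes compared for length were called by level. In 19 of the 33 the length shifted by at least 0.1 on the log2 scale.

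FvH4_7g20750 had the largest shift of the called genes. Its effective length, relative to the median tested gene of each library, was 0.174, 0.171 and 0.140 in RdV, against 0.716, 0.712 and 0.662 in H4. The FT3OE libraries stood at 0.767, 0.821 and 0.760, near H4. The RdV libraries were 4.33-fold shorter than H4, a log2 shift of −2.11 ± 0.09 (SE, n = 3 each; limma adjusted p = 0.0107; 0.0608 without RdV replicate 1 and at most 0.0831 without any 1 library). The level of this gene depended on the unit. Counts were 849, 1011 and 682 in RdV, against 5818, 4002 and 5167 in H4, a log2 change of −2.65 ± 0.15 (SE; adjusted p = 9.38e-06 by edgeR). TPM were 137.64, 175.69 and 154.5 in RdV, against 214.84, 195.62 and 214.09 in H4, a log2 difference of means of logs of −0.42.

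FvH4_7g06200 shifted in the same direction, with relative lengths of 0.193, 0.205 and 0.193 in RdV, against 0.304, 0.296 and 0.276 in H4. Its log2 shift was −0.56 ± 0.04 (SE; limma adjusted p = 0.0238, and 0.0788 to 0.145 without single libraries). Here the counts gave a log2 change of −0.71 (edgeR adjusted p = 0.000161), whereas TPM hardly differed, at 134.87, 119.21 and 125.75 in RdV and 130.43, 125.04 and 126.19 in H4.

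Among the 8 genes called longer, the largest shifts were small. FvH4_3g31440 had relative lengths of 0.917, 0.902 and 0.912 in RdV, against 0.773, 0.773 and 0.763 in H4, a log2 shift of 0.24 ± 0.01 (SE; limma adjusted p = 0.00934). FvH4_3g39450 had 0.830, 0.839 and 0.829 in RdV, against 0.755, 0.757 and 0.746 in H4, a log2 shift of 0.14 ± 0.01 with the same adjusted p from limma. The ecotypes did not overlap in either gene, which the rule for naming genes required. By counts the first fell in RdV, with a log2 change of −0.35 (edgeR adjusted p = 0.00685), and the second rose, by 0.70 (adjusted p = 9.48e-05). Without single libraries the limma adjusted p of the shift lay between 0.0414 and 0.0831 for the first and between 0.046 and 0.0831 for the second, and it stayed under 0.05 in both without RdV replicate 2.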

How the data were processed

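Stranded mRNA libraries were read as paired 150 bp reads, per the labels' protocols. The authors deposited expected counts per gene, which are estimates, not normalized and whole in 97.5% of values (within 1e-06), and TPM, a unit corrected for effective length. The submitters' processing notes list STAR, RSEM and edgeR with no version and no role. Which genome build and annotation served was not given in the sources used here. The counts were rounded here.

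RdV and H4, 3 libraries each, were fitted with edgeR 4.0.16 in R 4.3.3 (filterByExpr, TMM, glmQLFit, glmQLFTest). An adjusted p under 0.05 (Benjamini-Hochberg) is a call. The SE of a log2 change is its size divided by the root of the F value. The fit of 6 libraries keeps the spread of FT3OE out of the comparison. Effective length was tested with limma 3.58.1 on log2(count / TPM), less a lowess trend (span 0.3). Log2 CPM used a prior count of 2. Both tests were first run on simulated data. Positions, windows and level classes are descriptions in Python 3.11.15 with pandas 2.3.3.

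The named genes are, among called genes with at least 10 counts in each of the 6 libraries and no overlap, the 2 largest rises and the 2 largest falls, and likewise for effective length. The comparison, tests and rules were chosen with earlier results of these data known. Planned gene lists and marker checks could not be run without names. Alternatives covered scaling, DESeq2 1.42.0, limma, filters, thresholds, depth, length, a replicate block and leaving out each library. Totals were 23110936 to 30507161 counts, and the spread between libraries, which went beyond counting noise, also limits the precision.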

Additional observations from a re-analysis of the deposited data

How the results depend on the processing

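For RdV against H4, the 7953 calls stayed within 1.5 times (5690 to 9773) under the alternatives run, apart from stricter thresholds: 4881 genes (2590 higher, 2291 lower) at an adjusted p under 0.01 and 1812 (1152 higher, 660 lower) when tested against a fold of 1.5, both fewer by construction. Lower calls, 3837 with TMM, were 2089, 1753 and 2016 under limma on log2(TPM + 1), on log2(TPM + 0.1) and with a minimum mean of 1 TPM, and calls at 2-fold or more, 2027 with TMM, were 1337 and 1294 under the first and last of these; the cause was not tested. Without single libraries 5993 to 9513 genes were called.

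The 33 calls of effective length were 6 at an adjusted p under 0.01, 0 under the replicate block (limma; 1060 at an unadjusted p under 0.05) and 0 to 17 without single libraries. Of 40 values for the 4 genes named for length 13 kept their call and 27 missed the threshold, and of 88 for the 4 genes named for level 78 kept it; the 10 others were all of FvH4_5g06210, for which DESeq2 gave no adjusted p. None changed direction.

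With the replicate block 8908 genes were called by level. Libraries with the same number deviated from their group means with correlations of 0.043, 0.206 and 0.199 across genes for numbers 1, 2 and 3. Libraries with different numbers ranged from −0.211 (RdV replicate 2 with H4 replicate 3) to 0.052 (RdV replicate 1 with H4 replicate 3). Only the latter pair was above 0 among them. The labels name no batches, so the main fit did not take the numbers as pairs. Whether the numbers mark shared batches was not tested.

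Sparse genes were measured less precisely: the SD of log2 CPM over 3 libraries had a median of 0.261 in RdV and 0.243 in H4 in the lowest level class, and 0.095 in RdV and 0.065 in H4 in the highest. Differences of sequence between the ecotypes could not be examined in these tables. This limit applies to the genes read in one ecotype alone, the genes named for level and the effective lengths.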
